A study of Mus musculus with 10 samples.

Results

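The genes of the cytosolic ribosomal proteins were followed in 10 cultures of mouse leukemia stem cell lines, each profiled once on an Affymetrix Mouse Genome 430 2.0 array. The genes were chosen by symbol alone: Rpl or Rps and a number, with an optional a, x or l suffix, together with Rplp0, Rplp1, Rplp2 and Rpsa, and without pseudogenes and the Rps6k kinases. Each gene was read by its brightest probe set on average, among those annotated to that symbol alone. This gave 49 ribosomal protein genes of 18194 genes in all, and 46 of them were among the 11993 genes tested, which exceeded the median of their array in 2 or more of the 10 arrays. A further 25 ribosomal protein genes, Rpl3, Rpl5, Rpl10 and Rplp1 among them, were read only by probe sets that list the gene beside its copies. They were left out here and entered only 1 alternative, with 74 genes of which 72 were tested. Rpl10l was not analysed here.

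The RH-RAS lines carried DNMT3A with the R882H mutation, an enzyme that methylates DNA, together with NRAS with the G12D mutation, a GTPase of growth factor signalling. They were profiled untreated as lines 1, 2, 3 and 4, which the labels call independently derived. Lines 1 and 3 were profiled again after 4 days with 1 µM SGC0946, an inhibitor of the histone H3 methyltransferase Dot1l, and any vehicle in the untreated cultures was not stated in the sources used here. The reference lines were 1 MLL-AF9 line and 3 NUP98-JARID1A lines, transformed by these gene fusions, both found in acute myeloid leukemia. All cells grew in Opti-MEM with serum and stem cell factor, and the sources used here do not say from which cells or with which vectors the lines were made. Batches could not be assigned, since no scan dates were given in the sources used here.

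A ribosome is built from ribosomal RNA and a fixed set of small basic proteins, most of them present in a single copy in the large or the small subunit. Their messenger RNAs are among the most abundant of a growing cell, and nearly all begin with a 5′ terminal oligopyrimidine tract that lets mTOR signalling set their translation. A few proteins have a paralog that is used in particular tissues or conditions, and loss of single members is known from inherited and acquired bone marrow failure.

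The probe sets of most of these genes read near the top of the array scale. Values are log2 intensities, and the highest value of an array lay between 14.7 and 14.8. Of the 46 genes tested, 33 (71.7%) had a mean above 14 over the 10 arrays, 3 lay between 13 and 14 and 10 at or below 13. In all, 49 tested genes had a mean above 14, and these 33 were among them. The intensity of a probe set also depends on its probes, so no gene was ranked against another. The median SD over the 4 untreated RH-RAS lines was 0.0420 for ribosomal protein genes and 0.120 for all genes tested. It went with intensity: the median SD was 0.0347 for the 33 genes with a mean above 14 and 0.110 for the 10 genes at or below 13. The part of the top of the scale in the small spread and the small differences of the bright probe sets was not tested. The median of the 46 genes stood between 14.17 and 14.20 in the untreated RH-RAS lines, at 14.21 and 14.16 in treated lines 1 and 3, at 14.18 in MLL-AF9 and between 14.18 and 14.19 in NUP98-JARID1A. With 1 to 4 arrays in a group, precision was limited by their number.

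A few genes read at the bottom of the scale. Rps16, a core protein of the small subunit, had a mean of 3.62, the Rpl39 paralog Rpl39l 4.21 and the Rps4x paralog Rps4l 5.23, all below the array median on every array, and none of them was tested. Rpl3l, the muscle paralog of Rpl3, lay above the array median only on the 3 NUP98-JARID1A arrays and so entered the tests through them. The other 45 genes tested lay above it on all 10 arrays. Because ribosomal proteins have many processed pseudogenes, a probe set can read more than its own gene. Without the probe sets whose suffix marks probes shared among transcripts, 23 members could be tested.

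**Figure D1:**
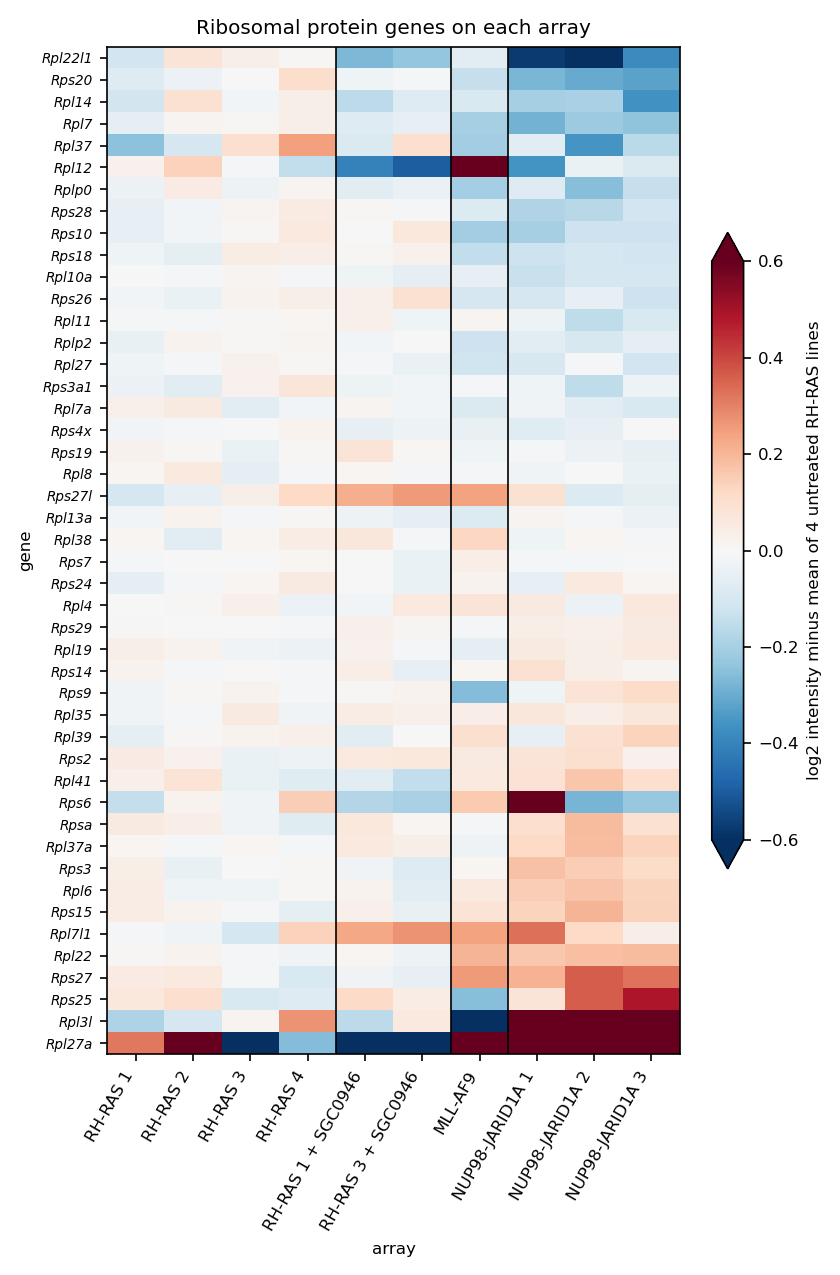
Log2 intensity of each ribosomal protein gene on each of the 10 arrays, as the difference from the mean of the 4 untreated RH-RAS lines (colour, log2 scale). Most genes are near 0 on all arrays, while Rpl27a and Rpl3l stand out on the NUP98-JARID1A arrays.

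The markers of the cell types had this setting. All 5 blood cell markers (such as Ptprc, which encodes CD45) were tested, and their median lay between 12.70 and 12.96 in the untreated RH-RAS lines. With SGC0946, 7 of 7 tested monocyte and macrophage markers rose, beside 6.84% of all genes tested. Their median went from between 6.77 and 8.64 in the 4 untreated lines to 10.83 and 11.16. Among them, Mrc1 lay below the array median in the 4 untreated lines and passed the filter only with the treated arrays. Its call is therefore a description. In the same comparison, 4 of 5 progenitor markers fell, with a median change of -1.12, beside 5.12% of all genes tested. In NUP98-JARID1A, 4 monocyte and macrophage markers were higher than in RH-RAS, 1 was lower and 2 did not pass (median difference 3.44), and 1 progenitor marker was higher, 2 were lower and 2 did not pass. In the same lines, 7 of 7 late neutrophil markers were higher than in RH-RAS (median difference 6.91). Over all genes tested, 32.5% were higher in these lines and 18.5% lower. The late neutrophil median lay between 9.62 and 12.77, against between 4.91 and 5.29 in RH-RAS. All 7 markers read below the array median in the 4 untreated RH-RAS lines. All but Mmp8 entered the tests only through the NUP98-JARID1A and MLL-AF9 arrays, so this count is a description. MLL-AF9 had a late neutrophil median of 10.55, and 4 of its monocyte and macrophage markers were at least 2-fold above RH-RAS and 1 below (median difference 2.44). Among the untreated lines, line 4 had the highest monocyte and macrophage median, 8.64, against between 6.77 and 7.15 in lines 1 to 3. Its Csf1r, which encodes a cytokine receptor of macrophages, read 10.13 against between 7.71 and 7.87. Of 5 fibroblast and stromal markers 3 lay below the array median on all arrays. The other 2 were Fn1 (fibronectin), which was higher in NUP98-JARID1A by 3.74 ± 0.56 (limma adjusted p = 0.00131) and 2.89 above RH-RAS in MLL-AF9, and Pdgfrb, with 0.86 ± 0.34 (adjusted p = 0.0680) in NUP98-JARID1A. The part of these shifts in the values of the ribosomal protein genes was not tested.

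The first comparison asked how the genes responded to the Dot1l inhibitor. No ribosomal protein gene passed the test with SGC0946. In the fit of all 10 arrays with limma, 0 of 46 had a Benjamini-Hochberg adjusted p under 0.05, beside 12.0% of all genes tested, of which 6.84% rose and 5.12% fell. At an unadjusted p under 0.05 there were 3. The median change was 0.0030 on the log2 scale, beside 0.021 over all genes tested, and the median size of a change was 0.0277, beside 0.191. A change under 0.1 in size was measured for 39 of the 46 genes. The share with the same sign in lines 1 and 3 was 60.9% (28 of 46), beside 79.7% of all genes tested. Both treated arrays lay outside the range of the 4 untreated lines for 12 of 46 genes (26.1%), 5 above and 7 below, beside 48.0% of all genes tested. Leaving out an array of line 1 or 3 kept the member count at 0 and took the count over all genes from 1434 to 149 without untreated line 1, 123 without untreated line 3, 129 without treated line 1 and 28 without treated line 3.

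By role, the 20 core genes of the large subunit had a median change of -0.013 and the 20 of the small subunit one of 0.010. The genes of the P stalk, the arm of the large subunit that recruits translation factors, were Rplp0, with a change of -0.02 ± 0.09 (SE), and Rplp2, with 0.01 ± 0.08. Genes known from bone marrow failure also had values near 0. Rps19, the gene most often mutated in Diamond-Blackfan anaemia, had a value of 0.05 ± 0.08 (limma adjusted p = 0.774). Rps14, whose loss is part of a myelodysplastic syndrome, had a value of -0.01 ± 0.09 (adjusted p = 0.948). Rpl11, which binds the p53 inhibitor Mdm2 when ribosome assembly is disturbed, had one of 0.00358 ± 0.0868 (adjusted p = 0.989). For the 33 genes with a mean above 14, the largest change was 0.10 in size and the SE of the changes lay between 0.0799 and 0.0962.

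The larger values came from dimmer probe sets and paralogs, and none passed. Rpl12 encodes a protein at the base of the P stalk. It read 8.44 and 8.40 in untreated lines 1 and 3 and 8.01 and 7.92 in the same lines with SGC0946. Untreated lines 2 and 4 read 8.55 and 8.26, so both treated values lay under the untreated range. The change was -0.45 ± 0.14, with -0.43 in line 1 and -0.48 in line 3 (limma adjusted p = 0.0880). It passed in the fit of the lines 1 and 3 arrays alone (adjusted p = 0.00856), where 31.2% of all genes tested passed, and with all 4 untreated lines as control (adjusted p = 0.0339), where 15.7% did.

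Rpl7l1 is a paralog of Rpl7. It read 10.95 and 10.86 untreated and 11.19 and 11.23 treated in lines 1 and 3, above the 10.94 and 11.10 of lines 2 and 4. The change was 0.31 ± 0.12 (limma adjusted p = 0.157, and 0.0372 from the lines 1 and 3 arrays alone). Rps27l, a paralog of Rps27 and a known p53 target, went from 13.34 to 13.67 in line 1 and from 13.49 to 13.71 in line 3. Its treated values were also above lines 2 and 4, at 13.40 and 13.57. Its change was 0.27 ± 0.11 (adjusted p = 0.162). Rpl22l1, the paralog of Rpl22, read 13.37 and 13.52 untreated and 13.22 and 13.26 treated, below the 13.56 and 13.49 of lines 2 and 4, a change of -0.21 ± 0.14 (adjusted p = 0.396). Rpl27a had the widest spread, with a change of -0.94 in line 1 and -0.10 in line 3, and a mean of -0.52 ± 0.39 (adjusted p = 0.458). The 4 paralogs tested had a median change of 0.15.

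The responses of lines 1 and 3 were set beside each other too. The largest member difference between them was 0.84 in size, for Rpl27a. Each line had 1 array with SGC0946 and 1 without, so any spread had to come from other lines. A test on these arrays cannot decide whether the lines responded alike, and none is read here.

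**Figure D2:**
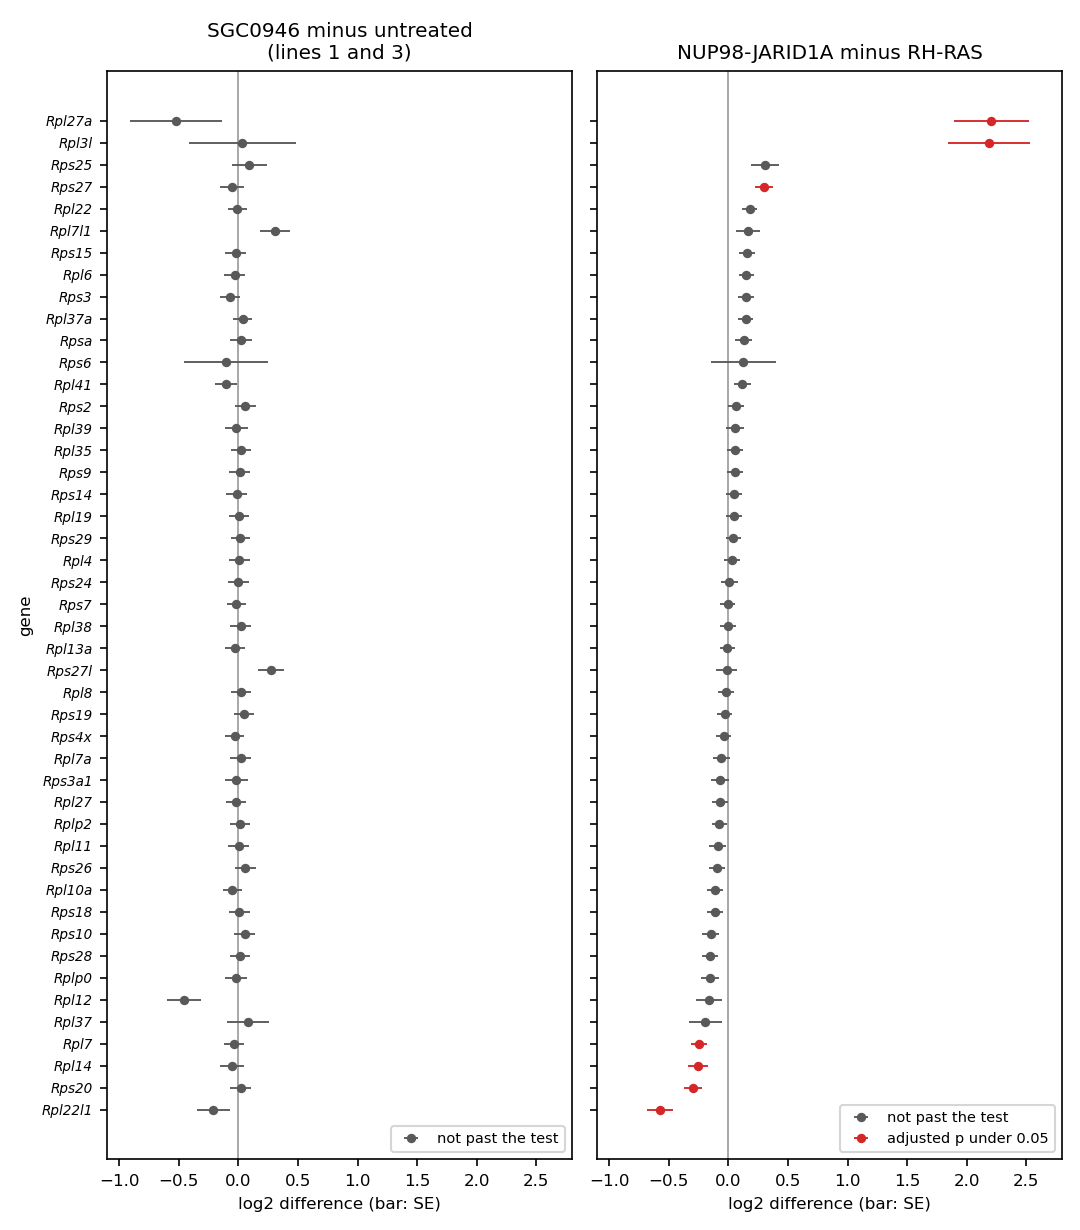
Log2 difference of each tested ribosomal protein gene with SGC0946 and in NUP98-JARID1A (points), with the SE from limma as a bar. With SGC0946 all 46 genes stayed on the non-significant side, while 7 passed in NUP98-JARID1A, Rpl27a and Rpl3l by over 2 on the log2 scale. Rpl3l entered the tests only through the NUP98-JARID1A arrays.

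The second comparison set the NUP98-JARID1A lines beside the untreated RH-RAS lines, with limma on the 8 arrays that had no inhibitor. Of the 46 ribosomal protein genes 7 passed (15.2%), beside 51.0% of all genes tested. Rpl27a, Rpl3l and Rps27 were higher in NUP98-JARID1A and Rpl22l1, Rps20, Rpl14 and Rpl7 lower, and 39 did not pass. Rpl3l is counted among the 7 although it entered the tests only through the NUP98-JARID1A arrays, so its call is a description. Over all genes tested, 32.5% were higher and 18.5% lower. The member median was -0.0058, beside 0.098 over all genes tested, and the median size of a difference was 0.113, beside 0.351. A difference under 0.2 in size was measured for 38 of 46. Groups did not overlap for 23 of 46 genes (50.0%), 11 above and 12 below, beside 54.8% of all genes tested. Among called genes, the median size was 0.30 for members and 0.68 for all.

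The count of 7 depended on how limma estimated the spread. For the 33 genes with a mean above 14, the SD over the 4 RH-RAS lines lay between 0.00738 and 0.0773, while the moderated SE of the difference lay between 0.0633 and 0.0755. With a spread that followed the mean intensity and was robust to outlying genes, the median SE of these genes was 0.0357 instead of 0.0676. Then 19 members passed (41.3%), 10 higher and 9 lower, beside 51.1% of all genes tested. The 12 added were Rpl22, Rpl37a, Rpl6, Rps15, Rps25, Rps3 and Rpsa, higher in NUP98-JARID1A, and Rpl10a, Rplp0, Rps10, Rps18 and Rps28, lower. Subtracting each array's median moved the split from 3 higher and 4 lower to 8 higher and 3 lower, 11 calls in all (23.9%), and the member median to 0.0384. Over all genes tested, 51.3% passed under this setting, 35.1% higher and 16.2% lower.

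Windows of 30 bases around the RefSeq transcription starts are shown for the called genes with a listed start, which Rpl7 and Rps20 lacked. They are shown because the pyrimidine tract that marks the class begins at that start. They come from the RefSeq promoter table of build GRCm38.p6, with 15 bases before and 15 from the start on, read 5′ to 3′ on the transcribed strand. Capitals mark CTTTC, a short pyrimidine run starting with C. The windows are Rpl27a at chr7:109519180-109519209 (plus strand), Rps27 at chr3:90213634-90213663 (minus strand), Rpl22l1 at chr3:28805493-28805522 (plus strand), Rpl14 at chr9:120571502-120571531 (plus strand), and Rpl3l at chr17:24727811-24727840 and at chr17:24732670-24732699 (both plus strand). The last is a second annotated start of Rpl3l.
Rpl27a: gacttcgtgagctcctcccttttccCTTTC
Rps27: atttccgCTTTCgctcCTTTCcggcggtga
Rpl22l1: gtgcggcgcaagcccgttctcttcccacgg
Rpl14: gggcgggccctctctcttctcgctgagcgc
Rpl3l, first start: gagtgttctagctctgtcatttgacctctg
Rpl3l, second start: gtcatcaacagctacagtgccccaaatgtc
Rpl27a and Rps27 held the letters CTTTC in this window and the other windows did not. These letters do not mark every pyrimidine run. The Rpl14 window holds an unbroken run of C and T across the annotated start, and the Rpl22l1 window one just after it. The table matched 43 of the 49 genes with 51 promoters, and 6 genes, Rpl7 and Rps20 among them, had no entry. On the transcribed strand, CTTTC lay within 25 bases of the start in 12 of 51 promoters (23.5%), beside 2219 of 32851 (6.75%) in the whole table. CTTCCG, the letters of a core ETS motif, lay on either strand of the 300 bases in 31 of 51 (60.8%), beside 5537 of 32851 (16.9%). Both motifs can overlap by their shared letters, and a match only describes the letters.

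Among core genes of the large subunit, 1 was higher, 2 were lower and 17 did not pass, with a median of -0.0075. Rpl27a, a core protein of the large subunit, had the largest difference. It read 9.81, 10.19, 8.75 and 9.24 in untreated RH-RAS lines 1 to 4 and 11.72, 11.62 and 11.77 in NUP98-JARID1A lines 1 to 3. The groups did not overlap, and RH-RAS lines differed among themselves by more than 1 (SD 0.634, n = 4), against an SD of 0.074 (n = 3) in NUP98-JARID1A. The difference was 2.21 ± 0.32 (SE), or 4.61-fold (limma adjusted p = 0.00106). Among probe sets that list Rpl27a beside its copies, the brightest gave -0.10 (adjusted p = 0.221).

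Rpl7 sits in the large subunit beside its ribosomal RNA. It read 14.16, 14.24, 14.23 and 14.26 in RH-RAS and 13.94, 14.01 and 13.98 in NUP98-JARID1A. All NUP98-JARID1A values lay below all RH-RAS values. The difference was -0.25 ± 0.07, or 1.19-fold (limma adjusted p = 0.0182, and 0.0544 without RH-RAS line 2). The other probe sets of Rpl7 had differences with the same sign, and its 3 probe sets spanned -0.27 to -0.15.

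Rpl14, another large subunit protein, read 9.72, 9.92, 9.82 and 9.87 in RH-RAS and 9.63, 9.64 and 9.47 in NUP98-JARID1A. The groups did not overlap but came within 0.1 of each other. The difference was -0.25 ± 0.08 (limma adjusted p = 0.0388). The call was lost when any RH-RAS or NUP98-JARID1A array other than RH-RAS line 1 was left out, with an adjusted p of 0.104 without RH-RAS line 2, 0.0771 without line 3 and 0.0763 without line 4. Without NUP98-JARID1A line 1, 2 or 3 it was 0.0508, 0.0507 or 0.113. After subtraction of each array's median it was 0.0955, and with the brightest of the probe sets that also list copies 0.115.

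Rpl22, which also binds other RNAs and is needed for T cell development, just missed the threshold. It read 14.17, 14.18, 14.15 and 14.13 in RH-RAS and 14.32, 14.34 and 14.35 in NUP98-JARID1A, without overlap. The difference was 0.18 ± 0.06 (limma adjusted p = 0.0505), and 0.00181 with the intensity-dependent spread. It was 0.36 (adjusted p = 0.0168) for the probe set without shared probes. The 3 probe sets of Rpl22 spanned 0.18 to 0.36. Rpl11 had a difference of -0.09 ± 0.07 (adjusted p = 0.297).

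In the small subunit 1 core gene was higher, 1 lower and 18 did not pass, with a median of 0.024. Rps27, a protein with a zinc finger, read 8.25, 8.26, 8.19 and 8.11 in RH-RAS and 8.41, 8.57 and 8.53 in NUP98-JARID1A. All 3 values were above the RH-RAS range. The difference was 0.30 ± 0.08, or 1.23-fold (limma adjusted p = 0.0153). With the brightest of the probe sets that also list copies, it was 0.14 (adjusted p = 0.125). Rps20, a protein of the head of the small subunit, read 14.39, 14.43, 14.46 and 14.57 in RH-RAS and 14.19, 14.16 and 14.14 in NUP98-JARID1A, also without overlap. The difference was -0.30 ± 0.07 (adjusted p = 0.0121). Its 4 probe sets spanned -1.19 to -0.30, the same sign in each.

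Rps25, which some viral RNAs need to recruit ribosomes, read 11.09, 11.13, 10.94 and 10.95 in RH-RAS and 11.11, 11.39 and 11.51 in NUP98-JARID1A, and the groups overlapped. The difference was 0.31 ± 0.11 (limma adjusted p = 0.0566), and 0.0115 without NUP98-JARID1A line 1. Rps6, the substrate of the S6 kinases, read 10.89 in NUP98-JARID1A line 1 and 9.73 and 9.78 in lines 2 and 3, against between 9.86 and 10.15 in RH-RAS. The high value of line 1 gave an SD of 0.66 (n = 3) and a difference of 0.13 ± 0.27 (adjusted p = 0.731). Rps14 and Rps19 differed by 0.05 ± 0.07 (adjusted p = 0.557) and by -0.03 ± 0.07 (adjusted p = 0.723). Rpsa, also known as the laminin receptor, differed by 0.13 ± 0.07 (adjusted p = 0.180). Rps4x differed by -0.04 ± 0.07 (adjusted p = 0.642), while the mean of its probe sets gave 0.48 (adjusted p = 0.00104). That mean takes in a dim second probe set, which read between 5.37 and 5.55 in RH-RAS, below the array median.

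Both P stalk genes had negative values that did not pass. Rplp0 read 14.28, 14.36, 14.28 and 14.32 in RH-RAS and 14.23, 14.06 and 14.17 in NUP98-JARID1A, without overlap. Its difference was -0.16 ± 0.07 (limma adjusted p = 0.120). Rplp2 differed by -0.07 ± 0.07 (adjusted p = 0.375).

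Of the 4 paralogs, 1 was higher and 1 lower. Rpl22l1 read 13.37, 13.56, 13.52 and 13.49 in RH-RAS and 12.91, 12.71 and 13.10 in NUP98-JARID1A. All 3 NUP98-JARID1A values were below the RH-RAS range. The Rpl22l1 difference was -0.58 ± 0.11, or 1.49-fold (limma adjusted p = 0.00364). The Rpl22 protein is known to repress Rpl22l1, and the values of Rpl22, which did not pass, were above the RH-RAS range in NUP98-JARID1A. In MLL-AF9, Rpl22l1 read 13.42, inside the RH-RAS range, and the brightest Rpl22 probe set read 14.36, above it. A link between these genes was not tested. Rpl3l read 4.53, 4.61, 4.73 and 4.98 in RH-RAS and 5.96, 7.47 and 7.28 in NUP98-JARID1A, where the SD was 0.821 (n = 3). The groups did not overlap, and the RH-RAS values lay below the array median. The difference was 2.19 ± 0.35 (adjusted p = 0.00164). As Rpl3l entered the tests only through these arrays, its call is a description. Rpl7l1 differed by 0.16 ± 0.10 (adjusted p = 0.209) and Rps27l by -0.02 ± 0.09 (adjusted p = 0.901). Rpl39, the core partner of Rpl39l, differed by 0.06 ± 0.08 (adjusted p = 0.553).

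**Figure D3:**
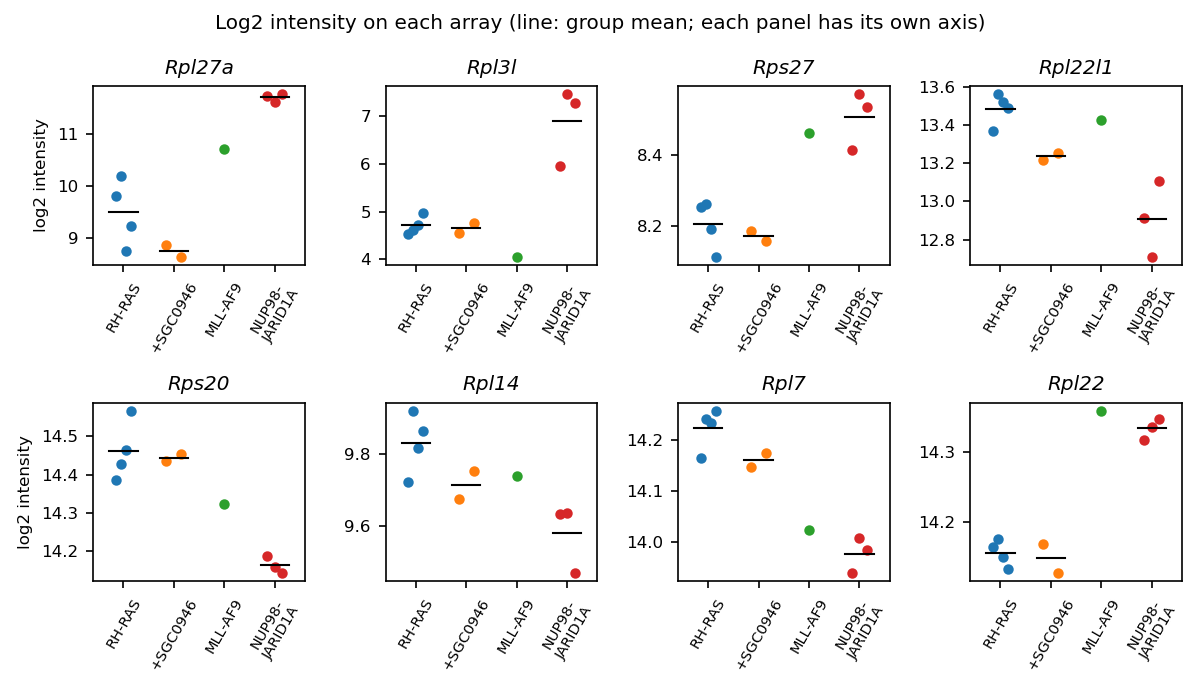
Log2 intensity of the called genes and of Rpl22 on each array, in a panel per gene with its own axis (points: arrays, line: group mean). In each panel of a called gene the 3 NUP98-JARID1A points lie outside the range of the 4 untreated RH-RAS points.

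Probe sets of the same gene did not always have the same sign. The 49 genes had 105 probe sets annotated to 1 symbol, and 24 genes had several, up to 6. For 13 of the 24 the NUP98-JARID1A differences had a single sign and for 11 both signs. Of the probe sets of these 24 genes, 51 from 21 genes had a mean above 13 and 29 from 17 genes one at or below 13. The bright ones had a median difference of -0.040, a median size of 0.128, and 3 higher, 9 lower and 39 that did not pass (limma adjusted over all 45101 probe sets, of which 34.3% passed). The dim ones had a median of 0.23, a median size of 0.519, and 10 higher, 7 lower and 12 that did not pass.

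Rps24, a small subunit gene mutated in some cases of Diamond-Blackfan anaemia, was the clearest case with SGC0946. A dim probe set read 8.40, 8.61, 8.39 and 7.89 in untreated RH-RAS lines 1 to 4 and 7.28 and 7.05 in treated lines 1 and 3. Both treated values were below the untreated range, a change of -1.23 ± 0.24 (limma adjusted p = 0.0298 over all probe sets, of which 4.43% passed). The other 5 probe sets of Rps24 had changes from -0.11 to 0.04. A dim probe set of Rpl22 had a change of -0.53 ± 0.12 (adjusted p = 0.0465), beside -0.01 for the brightest. Of the 51 probe sets with a mean above 13 in these 24 genes, 0 passed with SGC0946.

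**Figure D4:**
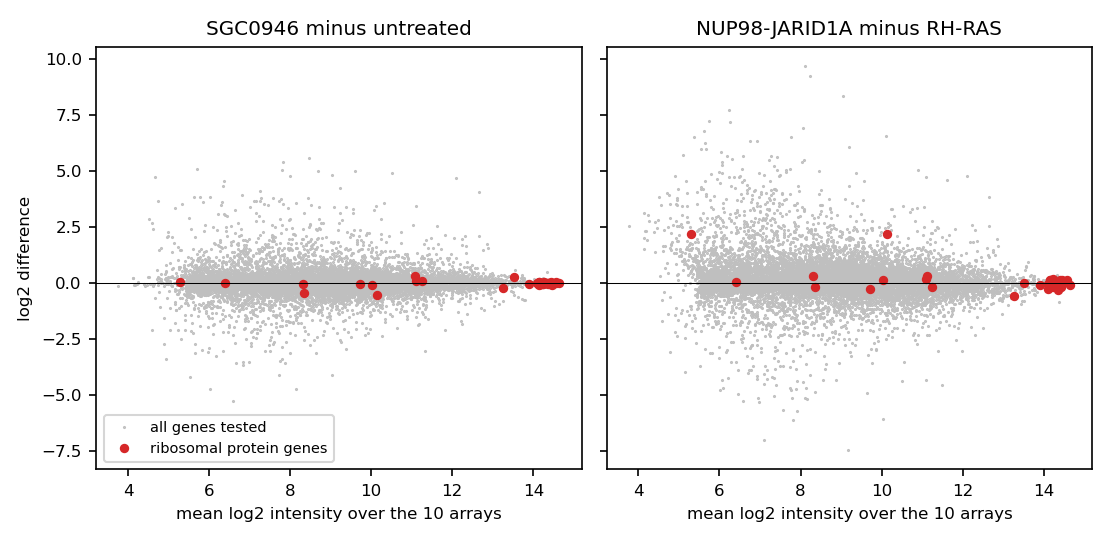
Log2 difference against the mean log2 intensity over the 10 arrays, for all tested genes and for ribosomal protein genes, with SGC0946 and in NUP98-JARID1A. Ribosomal protein genes with a mean above 14 lie within 0.30 of 0 in both tested comparisons, and Rpl27a and Rpl3l lie far from 0 at lower intensity in NUP98-JARID1A.

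The third comparison set the single MLL-AF9 array beside the 4 untreated RH-RAS lines. It has no replicate and was not tested, so counts describe this array alone. At least 2-fold from the RH-RAS mean and outside the RH-RAS range was 1 of 46 genes, Rpl27a, beside 13.0% of all genes tested (7.21% higher and 5.78% lower). Rpl27a read 10.72, between the RH-RAS values and those of NUP98-JARID1A, 1.22 above the RH-RAS mean. Without RH-RAS line 3, which had the lowest value of 8.75, it was no longer past that fold and the count was 0. With a threshold of 0.5 on the log2 scale there were 3 genes, beside 32.6% of all genes tested. The added genes were Rpl12, at 9.20 against between 8.26 and 8.55, a difference of 0.79, and Rpl3l. Rpl3l read 4.06 against between 4.53 and 4.98, a difference of -0.65, but all 5 values lay below the array median, so no lower level is read from it. MLL-AF9 lay outside the RH-RAS range for 34 of 46 genes (73.9%), 15 above and 19 below, beside 75.7% of all genes tested. Of the 11993 genes tested, 5352 lay above the range and 3722 below. The member median difference was -0.013, beside 0.074 over all genes tested.

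The next genes above the RH-RAS mean in MLL-AF9 were Rps27 at 0.25, Rpl7l1 at 0.24, Rps27l at 0.24 and Rpl22 at 0.20. Furthest below, leaving out Rpl3l, were Rps9 and Rps25 at -0.26 each, Rpl37 and Rps10 at -0.21 each and Rplp0 at -0.20. The probe set used for Rpl22 read 14.36, above all 4 RH-RAS lines, as it was in NUP98-JARID1A. Both comparisons share the RH-RAS arrays. In MLL-AF9 the other Rpl22 probe sets differed from the RH-RAS mean by 0.33 and by -0.85. The latter, the dimmest, read 9.57 against between 10.24 and 10.59, so the sign depended on the probe set.

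RH-RAS line 4 was set beside lines 1 to 3 as well. The member median difference was 0.0082, beside 0.0087 over all genes tested. The furthest members were Rpl37 at 0.33, Rpl27a at -0.34 and Rpl3l, below the array median in all 4 lines, at 0.36. The monocyte and macrophage markers had a median difference of 1.63 in the same comparison, and their part in the member values was not tested.

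Other genes of translation were read from fixed lists. Fau, whose product is cleaved to a small subunit protein, was the only ribosomal protein gene with another kind of symbol that could be read. Fau had a value of -0.03 (limma adjusted p = 0.890) with SGC0946 and differed by 0.08 ± 0.07 (adjusted p = 0.355) in NUP98-JARID1A. Of 15 tested translation genes that carry the same kind of pyrimidine tract, 0 passed with SGC0946, beside 12.0% of all genes tested. In NUP98-JARID1A 2 were higher, 2 lower and 11 did not pass, with a median of -0.068, beside 32.5% higher and 18.5% lower among all genes tested. Eef1d, an exchange subunit of elongation factor eEF1, was higher by 0.57 ± 0.09 (adjusted p = 0.00160). Npm1, a nucleolar chaperone of ribosome assembly, differed by -0.38 ± 0.07 (adjusted p = 0.00409). Eef1b2, another eEF1 subunit, differed by -0.24 ± 0.07 (adjusted p = 0.0192), and Eef2, the translocation factor, was higher by 0.19 ± 0.07 (adjusted p = 0.0499).

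Of 21 tested initiation factor genes, 1 passed with SGC0946, beside 12.0% of all genes tested. It was Eif4a2, an RNA helicase of the cap complex, with -0.59 ± 0.14 (limma adjusted p = 0.0379). In NUP98-JARID1A 2 were higher, 5 lower and 14 did not pass, with a median of 0.018. Of all genes tested, 32.5% were higher and 18.5% lower. Eif4ebp1, the repressor of cap binding that mTOR switches off, differed by -1.28 ± 0.13 (adjusted p = 0.000237). Eif5b, which joins the subunits, differed by 0.69 ± 0.10, the eIF3 subunit gene Eif3k by 0.61 ± 0.09 and the eIF2 subunit gene Eif2s2 by -0.59 ± 0.09.

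The mitochondrial ribosomal proteins, a separate set encoded in the nucleus, gave other counts. Of 76 tested, 1 passed with SGC0946, Mrpl4, with 0.64 ± 0.11 (limma adjusted p = 0.0153), beside 12.0% of all genes tested. The median change was 0.12, beside 0.021 over all genes tested. In NUP98-JARID1A 32 were higher, 1 lower and 43 did not pass, with a median of 0.23, beside 32.5% higher and 18.5% lower among all genes tested. After subtraction of each array's median, 35 were higher and 0 lower, beside 35.1% higher and 16.2% lower among all genes tested. Mrpl16 differed by 0.93 ± 0.16 (adjusted p = 0.00270), Mrpl33 by 0.87 ± 0.12 (adjusted p = 0.00105), Mrps12 by 0.71 ± 0.17 (adjusted p = 0.00930) and Mrpl44 by 0.69 ± 0.10 (adjusted p = 0.00113). The difference between mitochondrial and cytosolic sets was not tested.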

How the data were processed

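Total RNA of 10 cultures was hybridised to 1 array each. The authors deposited a log2 intensity for each probe set, computed with RMA per the submitters' processing notes. Its version, the software that ran it and any batch are not given in these sources. Of 45101 probe sets, 64 were controls. The array annotation listed 35890, of which 34958 had 1 symbol and 932 several, and 9211 were not listed. The probe set with the highest mean over 10 arrays stood for each of 18194 genes, and genes above the array median on at least 2 arrays were tested.

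Differences were tested with lmFit and eBayes of limma 3.58.1 (R 4.3.3), p-values were adjusted after Benjamini-Hochberg over 11993 genes, and calls were made under 0.05. The change with SGC0946 came from all 10 arrays with 5 coefficients, as treated minus untreated lines 1 and 3. Untreated lines 2 and 4 and the 3 NUP98-JARID1A lines entered only the spread, so its SE does not rest on RH-RAS lines alone. NUP98-JARID1A came from the 8 arrays without inhibitor with 3 coefficients. The script was tested on simulated data. Treated and untreated arrays of lines 1 and 3 pair by cell line. With 2 arrays in each arm their deviations mirror each other, so the correlation of 0.292 is 1 value for both lines. The main fit did not use this pairing, and line as replicate block was an alternative. The labels call only RH-RAS lines independently derived, so p-values for NUP98-JARID1A measure the spread between these samples, which may be technical.

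The members and lists were chosen with earlier results of these data known. The rule named the 10 largest calls in each direction in the tested comparisons, members past the fold or the 6 furthest above and below in MLL-AF9, a fixed set of stalk, anaemia and paralog genes, and the 4 largest calls of each related list. Other genes (Rpl12, Rps6, Rps24, the SGC0946 values and the calls added by another setting) were chosen after their values were seen. Alternatives were median subtraction, other choices of probe set, no filter, an intensity-dependent robust spread, other controls, blocks and leaving out arrays.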

Additional observations from a re-analysis of the deposited data

Results flagged for a closer look

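A second probe set of Rps9, a small subunit gene, stood apart on 1 array. It read 13.19 in NUP98-JARID1A line 1 and 8.34 and 8.73 in lines 2 and 3. It read 8.66, 9.41, 9.50 and 9.88 in the untreated RH-RAS lines, sorted by value, 9.05 and 9.64 with SGC0946 and 8.91 in MLL-AF9. The probe set used for Rps9 read 14.17, 14.27 and 14.30 in NUP98-JARID1A. It was found among 56 probe sets not used for the members, screened for a value at least 2 above the highest RH-RAS line. In the same array Rps6 read 10.89, against 9.73 and 9.78 in lines 2 and 3. Of 46 members checked for a far value among the 4 RH-RAS lines, 0 had one, where chance gives about 1 in 20.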

How the results depend on the processing

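Members called with SGC0946 numbered 2 in the arrays of lines 1 and 3 alone (3746 genes in all), 1 with all 4 untreated lines as control and 1 without probe sets of shared probes. Line as replicate block, the true pairing, left 0 members and 866 genes. The median change was 0.0591 after median subtraction, -0.0161 with the mean of probe sets and -0.0519 without shared probes. In NUP98-JARID1A, members called numbered 11 of 46 after median subtraction (23.9%, beside 51.3% of all genes), 16 of 46 with the mean of probe sets (34.8%, beside 54.4%), 11 of 23 without shared probes (47.8%, beside 50.7%) and 19 of 46 with the robust, intensity-dependent spread (41.3%, beside 51.1%). With probe sets that list a member beside its copies, added after seeing the data, it was 11 of 72 (15.3%, beside 50.9%), where Rpl27a, Rps27 and Rpl14 lost the call and 4 of the 7 kept it. The line number as replicate block left 3 (Rpl27a, Rpl3l and Rpl22l1; 6.52%, beside 41.2%), with a median of 0.0123. Of these, Rpl3l entered the tests only through the NUP98-JARID1A arrays. RH-RAS and NUP98-JARID1A lines share only a number (correlations of -0.054, -0.019 and 0.070). The median was 0.0384 after median subtraction and 0.164 without shared probes. In MLL-AF9, 0 were past the fold with the mean of probe sets, 0 with copy-listing probe sets and 3 at 0.5, and the median was 0.0032 after median subtraction and 0.0972 without shared probes.

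Signs reversed in NUP98-JARID1A for Rps4x (0.48, mean of probe sets), Rps10 (1.04, without shared probes) and, with copy-listing probe sets, Rpl27a (-0.10), Rpl12 (0.22) and Rpl39 (-0.57). Those settings read other probe sets, and the cause was not tested. Of the other values of named members, 593 kept their sign and side of the threshold, 14 lost the call, 16 gained it and 44 changed sign without a call. Leaving out 1 array gave 0 members each time and 28 to 1482 genes with SGC0946 (median -0.0142 to 0.0079), 5 to 7 members and 5121 to 5899 genes in NUP98-JARID1A (median -0.0138 to 0.0123), and 0 to 1 member in MLL-AF9 (median -0.0208 to -0.0146). Most members were read by probe sets near the top of the scale, and the part of this in their small differences was not tested.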
